A study of Rattus norvegicus with 9 samples.

Results

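A set of 5 genes of the rat insulinoma line INS-1E were examined for their response to palmitic acid and to the anthocyanin cyanidin-3-O-glucoside. They are Crp, Tenm4, Elmsan1, Vangl1 and Lingo4, 5 of the 20645 genes in the deposited table, and all 5 had a mean of at least 1 FPKM over the 9 libraries. They were chosen by the same FPKM and count values that are described here, for a rise with palmitic acid and a fall with cyanidin-3-O-glucoside. The levels of 4 of the 5 had that shape, while the level of Lingo4 did not rise with palmitic acid, so the description does not hold for it.

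INS-1E is a line of insulin-secreting tumour cells that is widely used as a stand-in for the pancreatic beta cell, and all 9 libraries come from this single line. RNA was sequenced from 3 libraries of cells given fatty acid-free BSA, from 3 libraries of cells given palmitic acid, and from 3 libraries of cells given palmitic acid together with cyanidin-3-O-glucoside, each for 24 h. These groups are called BSA, PA and PA + C3G. The study's methods give 0.5 mM for palmitic acid and 50 µM for cyanidin-3-O-glucoside, doses that the sample labels do not state. There was no group that received cyanidin-3-O-glucoside without palmitic acid. Nothing in the labels says whether the libraries of a group came from separate cultures, so p-values measure only the spread between these libraries.

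Crp encodes C-reactive protein, a pentraxin that binds phosphocholine on damaged membranes and microbes. It is made mainly by the liver and is classed among the acute-phase proteins. Tenm4 encodes a teneurin, a large cell-surface protein that binds latrophilin receptors on neighbouring cells. Elmsan1, now named Mideas, encodes the ELM2 and SANT domain scaffold of the mitotic deacetylase complex, which holds the histone deacetylases HDAC1 and HDAC2 with DNTTIP1. Vangl1 encodes a core membrane protein of planar cell polarity, the system that orients cells within an epithelial sheet. Lingo4 encodes a membrane protein with leucine-rich repeats and an immunoglobulin domain, a relative of LINGO1, the partner of the Nogo receptor in neurons.

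In the deposited table Crp (ENSRNOG00000000053) lies on chromosome 13 from 91054974 to 91093713 on the plus strand, and its model there holds 2 transcripts. Tenm4 (ENSRNOG00000011151) lies on chromosome 1 from 161401527 to 161880923, also on the plus strand. Elmsan1 (ENSRNOG00000010653) spans 107633716 to 107678156 on the minus strand of chromosome 6. Both remaining genes are on chromosome 2, Lingo4 (ENSRNOG00000022863) from 195617044 to 195643502 on the plus strand and Vangl1 (ENSRNOG00000016477) from 204575466 to 204625743 on the minus strand. The genome build behind these positions is not given in the sources used here.

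Promoter windows of 300 bases, from 250 before to 50 after the annotated start, were found for 4 of the 5 genes in the RefSeq set for the rat build GRCr8, and Vangl1 had no entry. The windows of Crp, Tenm4 and Elmsan1 are shown because these genes shared a pattern over the libraries while their promoters differ in composition. Capitals mark the 1 motif match among them. They run 5′ to 3′ on the strand of the gene, at chr13:87693812-87694111 (plus) for Crp, chr1:159973767-159974066 (plus) for Tenm4 and chr6:109560263-109560562 (minus) for Elmsan1.

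Crp: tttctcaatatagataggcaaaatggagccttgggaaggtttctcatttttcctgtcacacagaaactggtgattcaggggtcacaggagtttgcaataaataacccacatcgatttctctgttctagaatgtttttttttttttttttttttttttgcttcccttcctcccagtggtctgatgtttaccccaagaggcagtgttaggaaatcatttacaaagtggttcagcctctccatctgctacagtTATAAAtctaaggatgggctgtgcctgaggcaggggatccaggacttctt
Tenm4: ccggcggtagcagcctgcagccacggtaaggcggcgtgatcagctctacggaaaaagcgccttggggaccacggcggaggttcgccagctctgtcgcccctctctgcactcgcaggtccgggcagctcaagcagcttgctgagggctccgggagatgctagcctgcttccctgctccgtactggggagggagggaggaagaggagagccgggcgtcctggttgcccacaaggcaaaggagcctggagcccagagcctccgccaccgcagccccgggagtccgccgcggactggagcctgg
Elmsan1: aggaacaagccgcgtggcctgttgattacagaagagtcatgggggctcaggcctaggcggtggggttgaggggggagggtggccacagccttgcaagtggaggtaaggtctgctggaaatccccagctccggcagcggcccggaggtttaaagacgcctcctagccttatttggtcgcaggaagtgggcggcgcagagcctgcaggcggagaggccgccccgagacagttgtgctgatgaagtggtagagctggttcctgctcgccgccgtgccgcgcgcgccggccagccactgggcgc

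The Crp window held 41% G and C and 1 CpG, against a median of 51.7% and 7 CpG over the 33469 rat windows. The Tenm4 window held 68.7% G and C with 23 CpG, and the Elmsan1 window 65.7% with 22 CpG. Thus the Crp promoter was poor in CpG while the others were rich in it. The Lingo4 window lay near the middle, with 54% and 8 CpG.

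Each window was searched on both strands for 6 motifs, none of which contains another as searched. These were the STAT motif TTCNNNGAA (in 8.87% of all windows), the C/EBP motif TTGNGCAA (2.61%), the amino acid response core TGATGNAA (3.98%), the ER stress response element ERSE (0.0657%), the CRE-like core TGACGT (7.94%) and the TATA core TATAAA (14.2%). Crp had a TATAAA, whose first base is the annotated start of the gene, and none of the other 5 motifs. The windows of Tenm4, Elmsan1 and Lingo4 held none of the 6. These matches describe letters in a window only.

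Library totals lay between 45559993 and 66730721 estimated counts. Libraries of 1 group were more alike (Pearson r across genes 0.961 to 0.969) than libraries of different groups (0.919 to 0.959). The cells carried the defining markers of beta cells, as 9 of the 10 beta-cell markers listed were in the table and all 9 had a mean above 1 FPKM. Their summed level, which includes both insulin genes, was 48932 to 49646 FPKM with BSA, 22092 to 22607 with PA and 46487 to 52103 with PA + C3G. This sum was lowest with PA, where Crp, Tenm4, Elmsan1 and Vangl1 were highest, and its part in their values was not tested. In bulk libraries, fewer cells of a kind and less RNA per cell cannot be told apart.

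Levels are in FPKM, sequenced fragments scaled for the length of the gene and the depth of the library. Crp was at 2.10, 2.42 and 1.83 FPKM in the BSA libraries, at 6.96, 7.78 and 9.47 in the PA libraries, and at 2.79, 2.37 and 2.80 in the PA + C3G libraries. All PA libraries lay above all others, and the BSA and PA + C3G libraries overlapped. The group means were 2.11 ± 0.297, 8.07 ± 1.28 and 2.65 ± 0.247 FPKM (SD, n = 3 each).

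Tenm4 stood at 1.80, 2.16 and 1.88 FPKM with BSA, at 5.82, 6.59 and 6.69 with PA, and at 1.46, 1.91 and 1.68 with PA + C3G. Here too the PA libraries stood apart and the other groups overlapped, with the PA + C3G mean slightly under that of BSA (1.68 ± 0.228 against 1.95 ± 0.189, with PA at 6.37 ± 0.475, SD, n = 3 each).

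Elmsan1 was at 4.13, 4.74 and 4.16 FPKM with BSA, 13.1, 12.3 and 13.8 with PA, and 5.93, 5.55 and 5.74 with PA + C3G. Its 3 groups did not overlap at all. The PA + C3G libraries lay closer to BSA than to PA, with means of 4.34 ± 0.341, 13.1 ± 0.779 and 5.74 ± 0.190 FPKM (SD, n = 3 each).

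For Vangl1 the BSA libraries gave 5.78, 6.77 and 6.38 FPKM, the PA libraries 14.0, 14.6 and 14.9, and the PA + C3G libraries 6.33, 7.21 and 6.86. Only the PA libraries were separate, and the means were 6.31 ± 0.501, 14.5 ± 0.50 and 6.80 ± 0.446 FPKM (SD, n = 3 each). Within the PA group the order of the genes was Vangl1, Elmsan1, Crp, Tenm4 and Lingo4, and no neighbours in this order overlapped.

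Lingo4 had another shape. Its level was 1.61, 2.76 and 2.58 FPKM with BSA and 1.97, 1.89 and 1.40 with PA, so these groups overlapped. With PA + C3G it was 0.148, 0.0625 and 0.0599 FPKM, far under every other library. The means were 2.31 ± 0.619, 1.75 ± 0.307 and 0.0902 ± 0.0502 FPKM (SD, n = 3 each). The estimated counts behind the low levels were 68, 27 and 19, against 503 to 877 with PA and 720 to 1096 with BSA. The sources used here do not say how reads were assigned among gene models, so the level of Lingo4 is uncertain, and its size should be read with that limit.

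**Figure D1:**
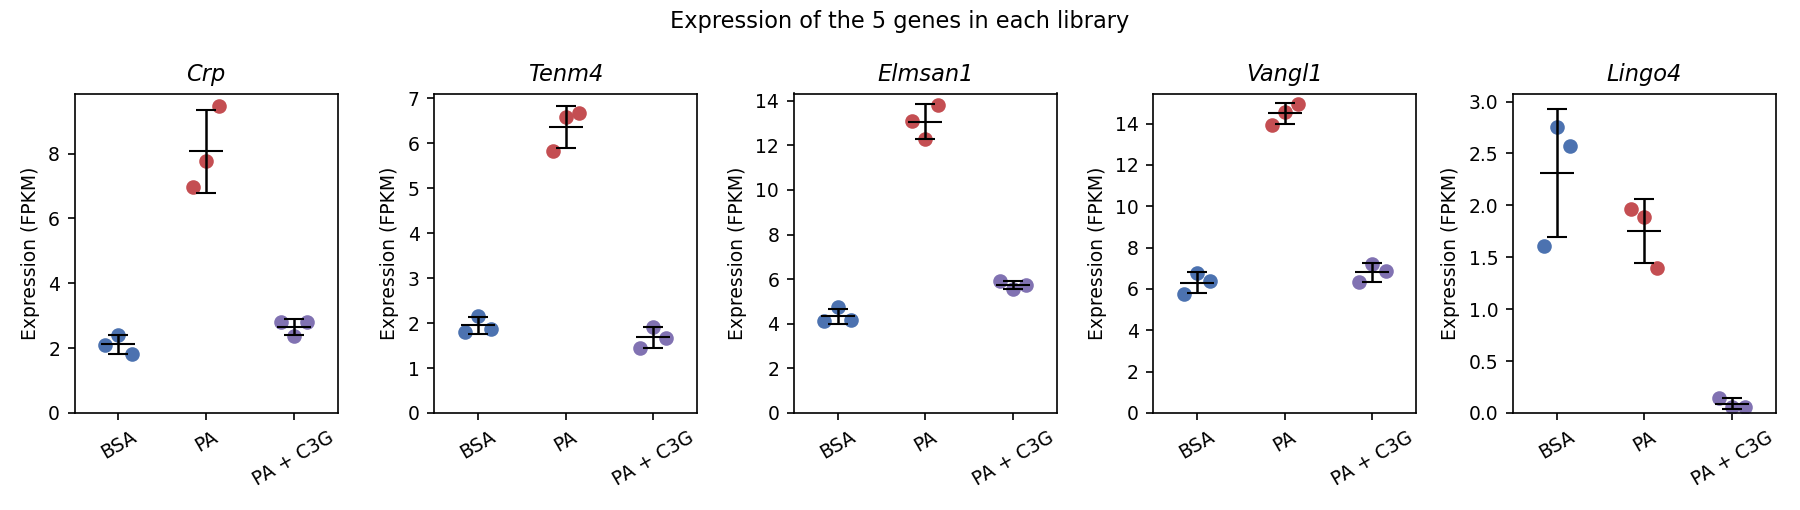
Expression of the 5 genes in FPKM (vertical axis, from 0, a separate scale for each gene) in each of the 9 libraries (points), with the group mean and SD (bars). In Crp, Tenm4, Elmsan1 and Vangl1 the PA libraries stand above the rest, whereas Lingo4 overlaps between BSA and PA and is at most 0.148 FPKM in the PA + C3G libraries.

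Fold changes came from a fit of edgeR across 12958 genes. For PA against BSA they are given as a description, since this contrast chose the genes. Crp was 3.88-fold higher (log2 fold change 1.96, SE 0.14), Tenm4 3.32-fold (1.73, SE 0.11), Elmsan1 3.06-fold (1.61, SE 0.07) and Vangl1 2.34-fold (1.22, SE 0.07). Lingo4 had a log2 fold change of -0.38 (SE 0.32), with a 95% interval from -1.08 to 0.33. Of all genes tested, 25.8% were higher with PA at an adjusted p under 0.05, and Crp was in place 73 by size of the rise, Tenm4 in place 112, Elmsan1 in place 145 and Vangl1 in place 304.

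PA + C3G against PA also chose the genes and shares the PA libraries with the contrast above, so its values are a description as well. Tenm4 was 3.69-fold lower (log2 fold change -1.88, SE 0.11), Crp 2.96-fold (-1.57, SE 0.14), Elmsan1 2.22-fold (-1.15, SE 0.06) and Vangl1 2.08-fold (-1.06, SE 0.07). Lingo4 was 18.2-fold lower (-4.19, SE 0.37), with a 95% interval of 10.2-fold to 32.6-fold. Among all genes tested 10.2% were called lower in this contrast, and by size of the fall Lingo4 was in place 7, Tenm4 in place 20, Crp in place 33, Elmsan1 in place 60 and Vangl1 in place 77.

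The shape that defined the choice was shared by many genes. In all, 1099 genes were called higher with PA and lower with PA + C3G than with PA, and 28 of them moved at least 2-fold in each step. Tenm4, Crp, Elmsan1 and Vangl1 were among the 28, in places 5, 8, 15 and 23 of the 1099 by size of the fall. Lingo4 was not among the 1099.

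PA + C3G against BSA was not named in the choice. It does compare BSA and PA + C3G values that were among those used to choose the genes. Its adjusted p-values for these genes are therefore a description and give no independent support. By edgeR's quasi-likelihood test with Benjamini-Hochberg adjustment, 36.9% of all genes differed in this contrast. Of the 4 genes other than Lingo4, 1 did. Elmsan1, in a background of 19% of genes called higher, was 1.38-fold higher with PA + C3G (log2 fold change 0.46, SE 0.06, 95% interval 0.32 to 0.61, adjusted p = 0.000385). It therefore remained above its BSA level in the presence of C3G, in 3 of 3 libraries. Lingo4 was 23.7-fold lower than with BSA (-4.56, SE 0.38, 95% interval of the fold 13.1 to 42.6), where 17.9% of all genes were called lower. This is given with no test, because the low PA + C3G values that chose Lingo4 enter it again and the gene passed the filter on low levels only through its BSA and PA libraries.

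The other 3 genes did not pass the threshold. Their intervals, with the same limit, say how large a remaining difference could be. For Crp the log2 fold change was 0.39 (SE 0.14, 95% interval 0.07 to 0.71) with an adjusted p of 0.0555 in edgeR. Leaving out BSA library 2 or PA library 3 took Crp past the threshold in edgeR (adjusted p = 0.0327 and 0.0470), as did DESeq2 (adjusted p = 0.0204), while the range over all settings was 0.0204 to 0.187. Vangl1 had a log2 fold change of 0.17 (SE 0.07, 95% interval 0.02 to 0.32) and an adjusted p of 0.0795 in edgeR, or 0.0411 without BSA library 2, in a range of 0.0162 to 0.321 over all settings. Tenm4 was on the other side of BSA, at -0.15 (SE 0.11, 95% interval -0.40 to 0.10, adjusted p = 0.330 in edgeR), and passed the threshold under no setting tried.

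**Figure D2:**
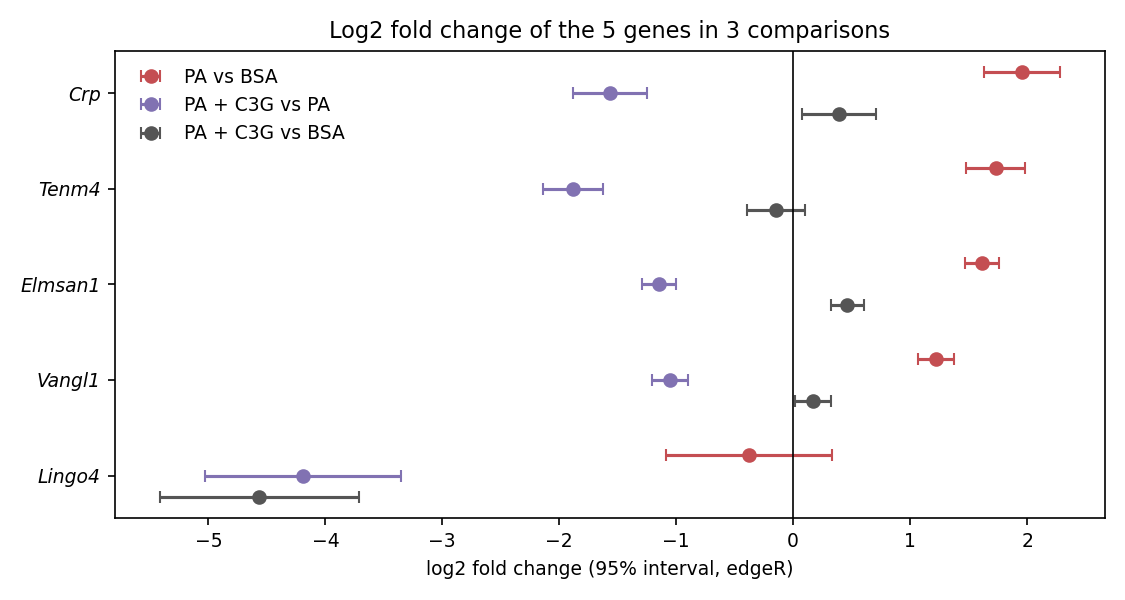
Log2 fold change (horizontal axis) of the 5 genes in the 3 comparisons, with 95% intervals from edgeR. The unadjusted interval of PA + C3G against BSA (grey) lies away from 0 for Elmsan1 (0.46), Crp (0.39), Vangl1 (0.17) and Lingo4 (-4.56) and spans 0 for Tenm4 (-0.15).

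Across the 9 libraries, which fall into 3 groups, the levels of Crp, Tenm4, Elmsan1 and Vangl1 had pairwise Pearson correlations of 0.929 to 0.988 on the log2(FPKM + 0.1) scale. Those of Lingo4 with the other genes were 0.19 to 0.49. These values describe the shared order of the groups and carry no test.

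For each gene the 3 genes with the highest correlation over the libraries are named, as a description. For Tenm4 they were Eif4b, an initiation factor (r = 0.994, n = 9 libraries), Pdcd11, a ribosome biogenesis factor (r = 0.994), and Eef1a1, an elongation factor (r = 0.992). For Vangl1 they were Eif3a, another initiation factor (r = 0.996), and the ribosomal protein genes Rpl4 (r = 0.996) and Rpl8 (r = 0.995). The likeness is of shape over the libraries and not of size, as Eif3a was at 56.8 ± 1.88, 73.4 ± 1.26 and 57.4 ± 1.07 FPKM with BSA, PA and PA + C3G (SD, n = 3 each).

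Elmsan1 was most like Pabpc1, the poly(A)-binding protein gene (r = 0.998), Aloxe3, a lipoxygenase gene (r = 0.996), and Tbccd1 (r = 0.995). Aloxe3 had means of 1.79, 5.93 and 2.42 FPKM with BSA, PA and PA + C3G, where Elmsan1 had 4.34, 13.1 and 5.74. Crp was most like Galnt13 (r = 0.992), which encodes an enzyme of mucin-type glycosylation and had means of 2.04, 4.71 and 2.35 FPKM, Zfp496 (r = 0.992) and Apba1 (r = 0.991).

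The patterns nearest to Lingo4 were weaker in likeness. They belonged to Rbmx, an RNA-binding protein gene (r = 0.972), and to the unnamed loci AABR07045105 and AABR07057347 (r = 0.972 each). AABR07045105 had means of 5.25 and 7.20 FPKM with BSA and PA and was listed at 0 in all 3 PA + C3G libraries. AABR07057347 went from 14.2 and 8.39 to 0.10 FPKM. Both loci thus had a near-loss with PA + C3G, a shape that picking by correlation with Lingo4 favours. Rbmx had no near-loss, with means of 34.0, 33.2 and 27.5 FPKM with BSA, PA and PA + C3G.

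Among the genes examined that lie within 100 kb of the 5 genes without overlapping them, those with a mean of at least 1 FPKM were 1 of 5 near Crp, 1 of 1 near Tenm4, 2 of 6 near Elmsan1, 7 of 9 near Lingo4 and 0 of 1 near Vangl1. The neighbour of Crp was Dusp23, which encodes a small dual-specificity phosphatase. By the deposited positions it lies 34862 bases away on the opposite strand, from a Crp model that spans 38740 bases. In GRCr8 the promoter windows of Crp and Dusp23 (chr13:87632351-87632650) lie farther apart than that. The counted Crp model may therefore not begin at the start used for its window, and how reads were assigned to it is not given. The level of Dusp23 was 11.6, 12.8 and 7.54 FPKM with BSA, 30.1, 32.3 and 29.4 with PA, and 19.9, 19.5 and 15.4 with PA + C3G. Thus Dusp23 had its highest level with PA, as Crp did, and the 3 groups did not overlap. Over all 12958 tested genes, 25.8% were called higher with PA, and 1099 were called higher with PA and lower with PA + C3G. The likeness of 1 tested neighbour is therefore not read as a response of the locus.

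By edgeR's test with Benjamini-Hochberg adjustment, Dusp23 rose with PA by 1.55 on the log2 scale (SE 0.18, adjusted p = 7.72e-05) and fell from PA to PA + C3G by 0.71 (SE 0.18, adjusted p = 0.0213). It remained above BSA by 0.84 with PA + C3G (SE 0.18, adjusted p = 0.00521), in 3 of 3 libraries. The neighbour of Tenm4, Nars2, a mitochondrial asparaginyl-tRNA synthetase gene, had log2 fold changes of -0.01 and -0.15 in these steps (adjusted p = 0.979 and 0.490, edgeR). Near Elmsan1, Dnal1 had -0.02 and -0.11 (adjusted p = 0.902 and 0.595), and Acot3 had 0.36 and -0.25 (adjusted p = 0.0437 and 0.208). Of the 7 tested near Lingo4, 2 were called for PA against BSA and 3 for PA + C3G against PA, in differing directions. Over all genes 51% and 21.2% were called in these contrasts, and with 7 genes the counts are not read as a trait of the locus. The mitochondrial ribosomal gene mrpl9 rose by 0.41 and fell by 0.45 (adjusted p = 0.00131 and 0.00326), Celf3, a splicing factor gene, fell by 0.36 and rose by 0.35 (adjusted p = 2.76e-05 and 0.000357), and Snx27, a sorting nexin gene, fell by 0.15 in the second step (adjusted p = 0.0263).

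**Figure D3:**
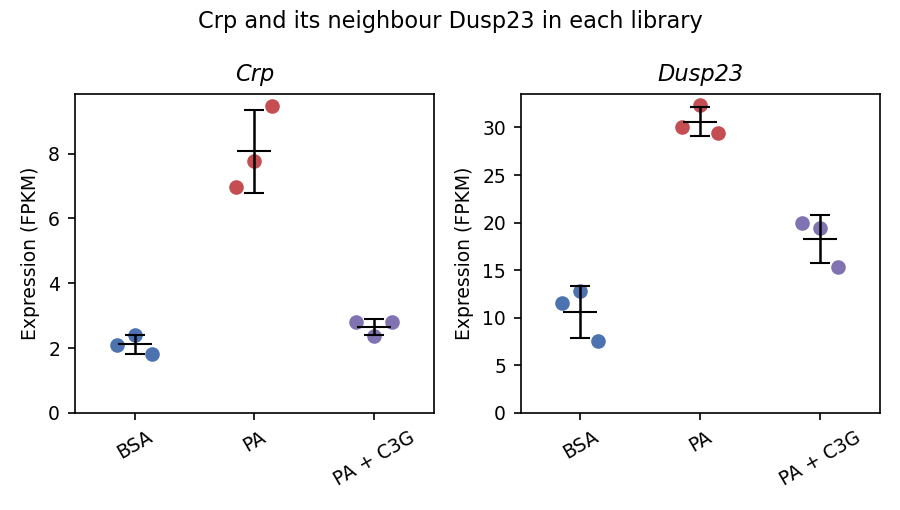
Expression in FPKM (vertical axis, from 0) of Crp and of its neighbour Dusp23 in each library (points), with group mean and SD (bars, n = 3). Both are highest with PA, at 8.07 and 30.6 FPKM, and the PA + C3G mean is 2.65 for Crp and 18.3 for Dusp23, against 2.11 and 10.6 with BSA.

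Lists of relatives and partners of each gene were examined next, in the same fit, against a background of 51% of all genes called for PA against BSA and 21.2% for PA + C3G against PA. By direction, 25.8% of all genes were called higher and 25.2% lower with PA. With PA + C3G against PA, 11.1% were called higher and 10.2% lower. All p-values given for list genes are edgeR's, with Benjamini-Hochberg adjustment over all genes tested. The lists are described by counts and medians only. The median log2 fold change of all tested genes was 0.00 in each of these contrasts.

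The list for Crp held pentraxins, acute-phase proteins and the cytokine route that induces them in liver, and 25 of its 35 genes were in the table. Of the 16 tested, 4 were higher and 7 lower with PA, and 7 were higher and 0 lower with PA + C3G than with PA, where 11.1% of all genes were called higher. The medians were -0.05 and 0.11. None of the tested genes of this list was called lower in the second step, either in edgeR (0 also at an unadjusted p under 0.05) or in DESeq2 (0). Over all genes 10.2% were called lower in this step, and 0 of 16 is not far from that share. Some fell without passing the test, such as Nfkb1 (-0.10) and Socs3 (-0.07). With libraries scaled to equal summed FPKM, the first count was 5 higher and 5 lower. The counts depended on single libraries, as they were 7 without PA library 2 for the first step and 4 without PA + C3G library 3 for the second.

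The 4 genes of the list that were higher with PA, as Crp was, were Socs3, a feedback inhibitor of cytokine signals (0.42, adjusted p = 0.0114), the NF-kappaB genes Nfkb1 (0.32, adjusted p = 0.00277) and Rela (0.15, adjusted p = 0.0204), and the kinase gene Jak2 (0.17, adjusted p = 0.0389). None of these 4 passed the test in the second step (adjusted p = 0.722, 0.320, 0.415 and 0.638). Others moved opposite to Crp. Il1r1, the interleukin-1 receptor, fell by 1.25 with PA (adjusted p = 3.74e-07) and rose by 0.66 with PA + C3G (adjusted p = 0.000274). Stat3, which carries the interleukin-6 signal to the Crp gene in liver cells, fell by 0.18 (adjusted p = 0.00599) and rose by 0.39 (adjusted p = 0.000405). Hnf4a, a liver and islet transcription factor, fell by 0.52 and rose by 0.42 (adjusted p = 0.00190 and 0.0160). Fgg, a fibrinogen chain made as an acute-phase protein, had a log2 fold change of -0.23 with PA (adjusted p = 0.493) and rose by 0.99 with PA + C3G (adjusted p = 0.0244).

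Of 8 hepatocyte markers 7 were in the table, 5 were under 1 FPKM in every library, and albumin had group means of 0.02, 0.02 and 0.00 FPKM. Only 1 marker had a mean of at least 1 FPKM and was tested. In edgeR that marker was called higher with PA than with BSA, and higher with PA + C3G than with BSA. It was not called for PA + C3G against PA. The summed level of the hepatocyte markers was 1.71 to 2.504 FPKM with BSA, 3.25 to 3.57 with PA and 2.85 to 4.54 with PA + C3G. The level of Crp was thus above the sum of these markers in every PA library, the group whose high values chose the gene. With PA + C3G Crp was below the sum in every library (2.37 to 2.80 FPKM). With BSA the ranges of Crp (1.83 to 2.42 FPKM) and of the sum overlapped.

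Among 10 tested genes of the teneurin list, 2 were higher and 4 lower with PA, and 1 was higher and 1 lower with PA + C3G than with PA. Over all genes the shares were 25.8% and 25.2% in the first step, and 11.1% and 10.2% in the second. The paralog Tenm2 had log2 fold changes of 0.20 and -0.09 (adjusted p = 0.256 and 0.707), with means of 2.22, 2.52 and 2.31 FPKM, so that its level was near that of Tenm4 with BSA and below it with PA. Tenm3, the most abundant teneurin with means of 65.4, 52.0 and 55.9 FPKM, fell by 0.30 with PA (adjusted p = 0.00350). Among the partners Unc5b, a netrin receptor that also binds FLRT proteins, rose from 10.4 ± 2.13 to 46.8 ± 1.44 FPKM (2.20, adjusted p = 2.02e-06) and fell by 0.73 to 27.6 ± 4.70 (adjusted p = 0.00756, SD, n = 3 each). Flrt1 went the other way, by -0.63 and 0.39 (adjusted p = 8.21e-05 and 0.00644).

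Of the planar cell polarity genes 21 were tested, of which 7 were higher and 4 lower with PA, while 0 were higher and 3 lower with PA + C3G than with PA in edgeR (2 and 4 at an unadjusted p under 0.05, and 1 and 3 in DESeq2). In all, 52.4% of the list was called in the first step and 14.3% in the second, near or below the 51% and 21.2% of all genes, and by direction 25.8% of all genes were higher with PA and 10.2% lower with PA + C3G. The 3 lower genes were Ror1, a receptor, Wnt5a, a secreted ligand, and Dvl2, a cytoplasmic transducer. Ror1 was at 1.37 ± 0.238, 4.15 ± 0.442 and 2.36 ± 0.340 FPKM (log2 fold changes 1.62 and -0.78, adjusted p = 1.94e-05 and 0.00705). Wnt5a was at 1.69 ± 0.0806, 3.70 ± 0.572 and 2.06 ± 0.448 FPKM (1.16 and -0.81, adjusted p = 0.000317 and 0.00899, SD, n = 3 each). Dvl2 changed by 0.50 and -0.25 (adjusted p = 4.58e-05 and 0.0110). Prickle1 rose by 0.69 with PA (adjusted p = 2.02e-05) and did not pass the test in the second step (-0.09, adjusted p = 0.366). Others fell with PA, among them Prickle2 by 0.76, Fzd6 by 0.63 and Scrib by 0.28 (adjusted p = 0.000366, 0.00165 and 0.000124). Vangl2, the paralog that works beside Vangl1, had log2 fold changes of 0.06 and 0.00 (adjusted p = 0.659 and 0.992).

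In the ELM-SANT and deacetylase list, which holds partners and relatives of Elmsan1, 4 of 20 genes were higher and 9 lower with PA, and 5 were higher and 2 lower with PA + C3G than with PA. The shares over all genes were 25.8% and 25.2% in the first step, and 11.1% and 10.2% in the second. The second count of 7 fell to 3 without PA library 1 or PA library 3, and to 4 without BSA library 3 or any single PA + C3G library, and its direction was 2 higher and 3 lower with libraries scaled to equal summed FPKM. Hdac1 had means of 123 ± 3.23, 73.4 ± 1.96 and 92.5 ± 2.25 FPKM, falling by 0.72 and rising by 0.37 (adjusted p = 4.74e-07 and 0.000369, SD, n = 3 each). Hdac2, Dnttip1 and Trerf1, the last an ELM-SANT relative of Elmsan1, fell with PA by 0.31, 0.18 and 0.26 (adjusted p = 0.000637, 0.00879 and 0.0108) and did not pass the test in the second step (adjusted p = 0.153, 0.247 and 0.209). The 4 genes that were higher with PA, as Elmsan1 was, were Rcor3 (0.26), Mta1 (0.19), Mier1 (0.14) and Sin3b (0.14), with adjusted p = 0.0245, 0.00761, 0.00727 and 0.0181. Of these Mta1 was also called lower with PA + C3G than with PA (-0.16, adjusted p = 0.0377). Without BSA library 3 or PA library 1, 0 genes of the list were called lower in that step. Rcor3, Mier1 and Sin3b did not pass the test there (adjusted p = 0.258, 0.992 and 0.421).

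Of 8 tested genes of the LINGO and Nogo receptor list, 0 were higher and 5 lower with PA, and 3 were higher and 0 lower with PA + C3G than with PA, with medians of -0.39 and 0.33. Ngfr, the p75 neurotrophin receptor, fell from 60.6 ± 5.96 to 12.2 ± 3.27 FPKM and rose to 43.7 ± 12.5 (log2 fold changes -2.28 and 1.87, adjusted p = 2.67e-05 and 0.000695, SD, n = 3 each). Lingo1 fell by 0.31 and rose by 0.27 (adjusted p = 0.00223 and 0.0146), and its rise was not called when libraries were scaled to equal summed FPKM. Lingo3 fell by 1.04 with PA (adjusted p = 0.00373), with 0.62 in the second step (adjusted p = 0.0820). At an unadjusted p under 0.05 edgeR again gave 0 higher with PA and 0 lower with PA + C3G, and so did DESeq2 after adjustment. Over all genes 25.8% were called higher and 25.2% lower with PA, and 11.1% higher and 10.2% lower with PA + C3G than with PA. With 8 genes tested, none of the counts of this list is read as a departure from those shares. Lingo4 itself was among the genes with the strongest falls with PA + C3G, in a contrast that chose it.

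**Figure D4:**
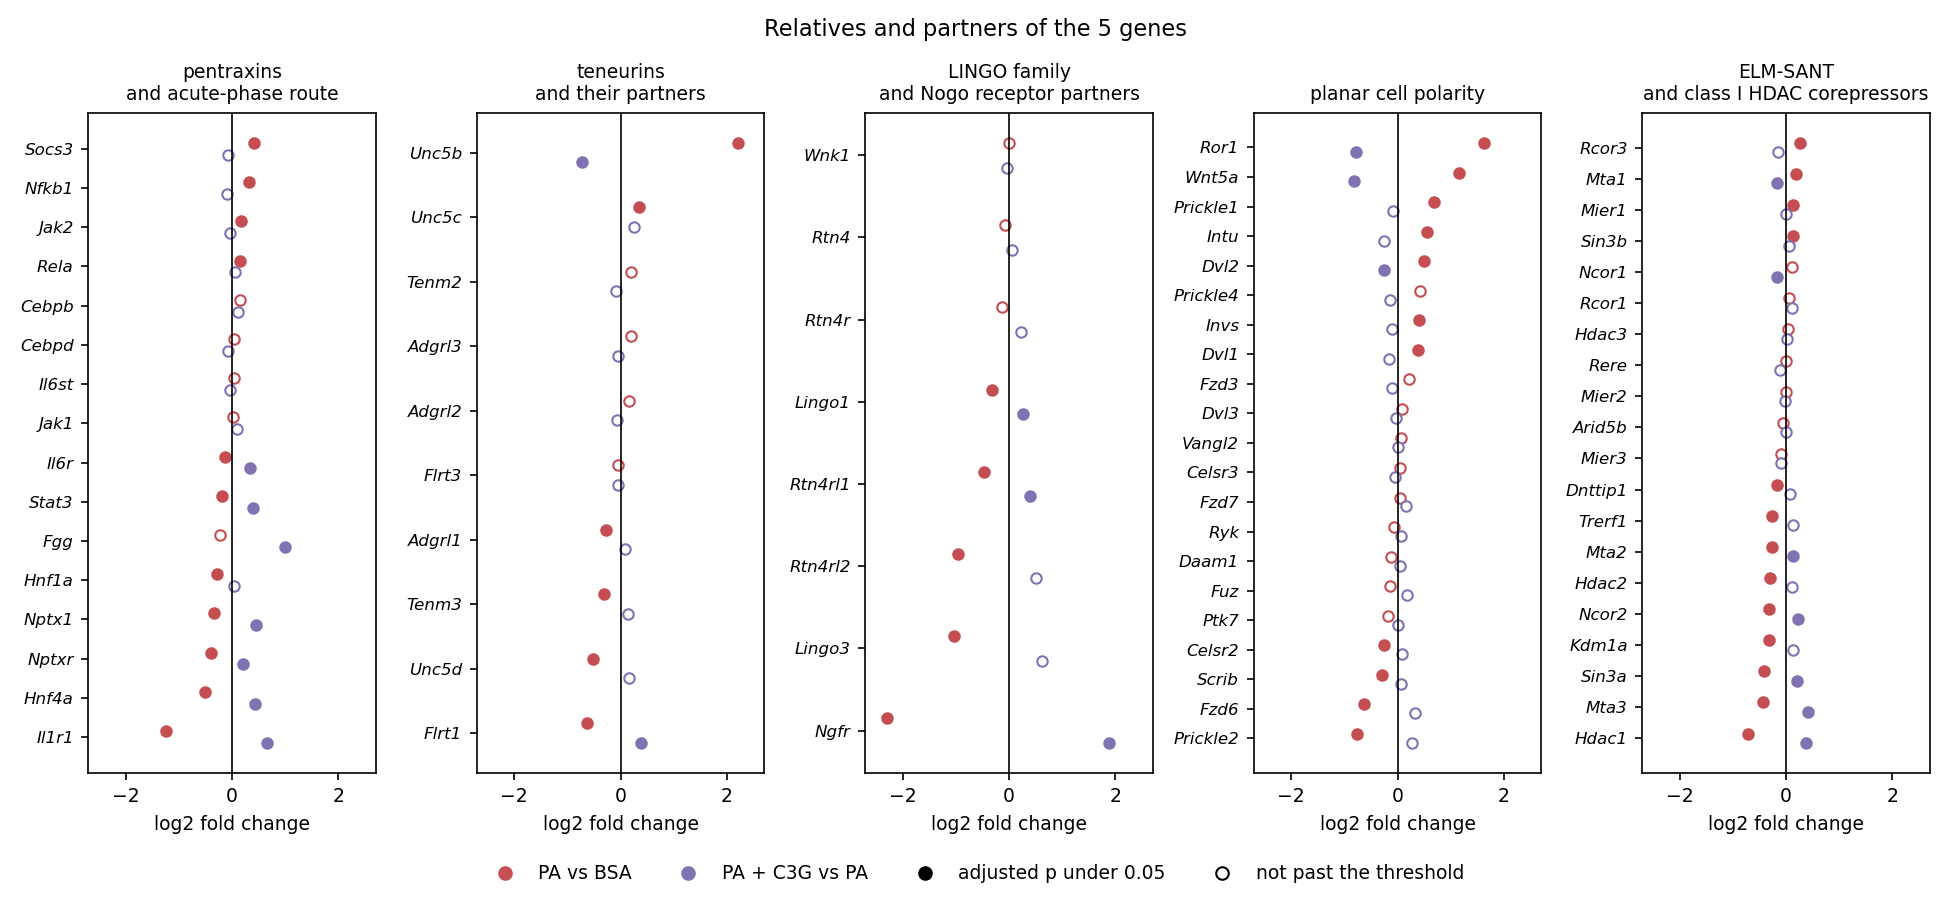
Log2 fold change (horizontal axis) of every tested gene of the 5 lists for PA against BSA (red) and PA + C3G against PA (purple), where filled points have an adjusted p under 0.05 in edgeR. Unc5b (2.20 and -0.73), Ror1 (1.62 and -0.78) and Wnt5a (1.16 and -0.81) share the directions of Crp, Tenm4, Elmsan1 and Vangl1, though not the size of the fall relative to the rise. Ngfr (-2.28 and 1.87) and Il1r1 (-1.25 and 0.66) move oppositely. Over all 12958 tested genes, 1099 were called with the first of these shapes.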

How the data were processed

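Poly(A) RNA of 9 INS-1E libraries was sequenced as paired-end, dUTP-marked libraries. The authors deposited 1 table with an estimated count and an FPKM value per gene and library. The submitters' processing notes name cutadapt 1.9, HISAT2 2.0.4, StringTie 1.3.4d, DESeq2 and edgeR without their roles. The genome build and whether counting used strand are not given in the sources used here. Entries at 4 counts were 2.44 times as frequent as the mean of those at 3 and 5, so dividing counts by 4 was tried.

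Genes with a mean of at least 1 FPKM (12958 of 20645) were fitted with edgeR 4.0.16 in R 4.3.3 (quasi-likelihood, TMM scaling, Benjamini-Hochberg adjustment, threshold 0.05) over all 9 libraries, after tests on simulated data. Alternatives used DESeq2 1.42.0, limma 3.58.1 on log2(FPKM + 1) or log2(FPKM + 0.1), other scalings, filters and samples. A symbol listed in several rows was taken from the row with the highest mean FPKM. The text names the 5 genes, genes of the fixed lists, neighbours within 100 kb that do not overlap them and, for each of the 5, the 3 genes most correlated over libraries. A result that bears on the size of the Lingo4 change is not reported here. The 5 genes and the lists were chosen with earlier results of these data known. No libraries held identical values (0 pairs).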

Additional observations from a re-analysis of the deposited data

How the results depend on the processing

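On the limma log2(FPKM + 1) scale, which understates changes of low genes, the PA against BSA values were 1.54 for Crp, 1.32 for Tenm4, 1.40 for Elmsan1 and 1.09 for Vangl1. On that scale the PA + C3G against PA values were -1.31 for Crp, -1.46 for Tenm4, -1.06 for Elmsan1 and -1.33 for Lingo4, the last being -3.30 with a pseudocount of 0.1. With libraries scaled to equal summed FPKM, Elmsan1 and Vangl1 had -1.24 and -1.14 in this contrast, and the share of calls that were higher went from 52.2% to 23.5% (PA + C3G against PA) and from 51.5% to 38.4% (PA + C3G against BSA), or 39.4% and 37.4% with limma at log2(FPKM + 1). For PA + C3G against BSA, Crp passed the threshold in DESeq2 (0.39, adjusted p = 0.0204). Without a filter 4 genes of the ELM-SANT list were called for PA + C3G against PA.

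Leaving out single libraries gave 0.29 to 0.49 for Crp and 0.10 to 0.21 for Vangl1 (PA + C3G against BSA), with calls gained for Crp without BSA library 2 or PA library 3 and for Vangl1 without BSA library 2. For PA + C3G against PA it gave -4.76 to -3.98 for Lingo4, 1718 (without PA library 3) to 2838 genes called, 3 to 7 calls in the ELM-SANT list and 4 to 7 in the acute-phase list, which had 7 to 10 for PA against BSA. The cause of these shifts was not tested.

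Same-numbered libraries shared little of their deviations (correlations of -0.0756 to 0.0574, with all values for PA + C3G against PA between 0.0390 and 0.0574). These values cannot settle whether the numbers pair the libraries. With a replicate block 6843, 3118 and 5058 genes were called for PA against BSA, PA + C3G against PA and PA + C3G against BSA, in place of 6614, 2752 and 4783, and Vangl1 passed in the last contrast (0.17, adjusted p = 0.0162). Tenm4 and Elmsan1 kept their side of the threshold against BSA in every setting. With 3 libraries a group and no group given C3G alone, an effect of C3G without palmitic acid was not measured.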
